A study of Mus musculus with 4 samples.

Results

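The expression of 9 innate immune sensing genes was examined across the cell types of transplanted mouse hearts: the Toll-like receptor genes *Tlr2*, *Tlr3*, *Tlr4*, *Tlr7*, *Tlr9* and *Tlr13*, the co-receptor genes *Cd14* and *Ly96*, and the adaptor gene *Myd88*. They were taken by symbol from the 30905 genes of the single-cell RNA sequencing (scRNA-seq) matrix, and the rule used the symbols alone. The grafts were 4 hearts transplanted heterotopically into male C57BL/6J recipients and collected on day 5. The donors of the 2 allogeneic grafts carried the strain label Balb/C and those of the 2 syngeneic grafts C57BL/6J. The matrix held 53824 cells in 4 libraries, told apart by the number at the end of each barcode, with 96020294, 115162601, 138892048 and 166079145 unique molecular identifiers (UMIs, each a counted transcript molecule) in libraries 1 to 4. No source used here ties a library to a graft. The cells therefore count as 1 pooled sample, without a comparison of allogeneic with syngeneic grafts. Values are given library by library, in the order 1 to 4 wherever 4 stand together, with no mean, error or p over libraries.

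Toll-like receptors recognise conserved microbial structures and molecules released by injured tissue. *Tlr2* and *Tlr4* encode receptors of the cell surface, for lipoproteins and for lipopolysaccharide respectively. *Cd14* encodes the protein that hands lipopolysaccharide to the TLR4 receptor, and *Ly96* encodes MD-2, the partner that binds it there. *Tlr3* (double-stranded RNA), *Tlr7* (single-stranded RNA), *Tlr9* (unmethylated CpG DNA) and *Tlr13* (bacterial ribosomal RNA) encode receptors of the endosome. All of these except TLR3 signal through MyD88, the adaptor encoded by *Myd88*, towards NF-kB and interferon regulatory factors. Monocytes, macrophages and neutrophils are the cells best known for this system, while endothelial cells and fibroblasts carry parts of it.

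The promoters of 3 members are shown because their genes stood at different ends of the results that follow. *Tlr2* and *Tlr13* were largely limited to myeloid cells, whereas *Myd88* was detected in every class. Each sequence runs 5′ to 3′ and is the part of the RefSeq window upstream of the annotated start (build GRCm38.p6) that no annotated exon overlaps. Capitals mark the only match to a searched motif within the printed stretches, in *Myd88*.
Tlr2, chr3:83841768-83841858, minus strand: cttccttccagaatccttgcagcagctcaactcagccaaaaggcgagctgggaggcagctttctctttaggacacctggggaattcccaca
Tlr13, chrX:106143025-106143203, plus strand: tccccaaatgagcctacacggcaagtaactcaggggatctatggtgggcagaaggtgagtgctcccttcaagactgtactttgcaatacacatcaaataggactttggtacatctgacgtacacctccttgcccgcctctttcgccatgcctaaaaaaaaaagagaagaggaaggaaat
Myd88, chr9:119340042-119340268, minus strand: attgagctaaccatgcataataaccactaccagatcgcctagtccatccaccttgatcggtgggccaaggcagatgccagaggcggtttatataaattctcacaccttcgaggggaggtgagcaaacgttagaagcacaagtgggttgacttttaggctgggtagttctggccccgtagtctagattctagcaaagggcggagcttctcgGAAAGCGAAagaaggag
Windows of 300 bases were given for 5 of the 9 members (*Tlr2*, *Tlr3*, *Tlr9*, *Tlr13* and *Myd88*). They were searched on both strands for the PU.1 motif GAGGAAGT, an interferon-stimulated response element (ISRE) core GAAANNGAA and a core of the NF-kB motif GGGNNTTTC. Of 32851 promoter windows, 3.2% held the PU.1 motif, 8.56% the ISRE core and 4.36% the NF-kB motif. The *Myd88* window held the ISRE core, beginning 40 bases before the start. Its printed stretch lies between the outer ends of *Myd88* in the Ensembl annotation but in no exon. The *Tlr3* window held the NF-kB motif 211 bases before the start, and its far end lay in an annotated exon, and the *Tlr9* window held the PU.1 motif downstream of the start. None of these letter strings was found in the *Tlr2* and *Tlr13* windows. Other forms of the same motifs were not searched, so their absence cannot be read from this. A match is a string of letters, not a measured site.

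In the GRCm38 annotation the members are spread over the genome. *Tlr2* lies on chromosome 3 (83836272 to 83841767, minus strand), *Tlr4* on chromosome 4 (66827584 to 66930284, plus strand), *Tlr3* on chromosome 8 (45395665 to 45411080, minus strand) and *Ly96* on chromosome 1 (16688051 to 16709611, plus strand). *Tlr9* (106222598 to 106226883, plus strand) and *Myd88* (119335934 to 119341411, minus strand) share chromosome 9, and *Tlr13* (106143204 to 106160493, plus strand) and *Tlr7* (167304929 to 167330558, minus strand) share chromosome X. *Myd88* overlaps *Slc22a14* on the same strand, so reads of those genes could be divided between them in the counting.

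After filtering and removal of predicted doublets, 42395 cells formed 27 clusters, of which 24 could be named from marker genes. The members were kept out of the genes used for clustering. The 10 named classes were endothelial-like (14882 cells), macrophage-like (8564), fibroblast-like (5196), granulocyte-like (3867), T/NK-like (1820), pericyte-like (1678), erythroid-like (1439), smooth muscle-like (760), cardiomyocyte-like (384) and B-like (325). The libraries were uneven. Library 4 supplied 5881 of the macrophage-like and 641 of the endothelial-like cells, whereas library 2 supplied 2746 of the granulocyte-like cells. Library 1 supplied 99 granulocyte-like cells. Fibroblast-like cells of different libraries fell into different clusters. In library 2, 796 of 799 were of cluster 19, led by *Prg4*, *Cxcl5* and *Ptx3* and holding 3 of 8 fibroblast markers. In library 4, 559 of 563 were of cluster 23, and those of libraries 1 and 3 were almost wholly of clusters 7 and 9. Library and cluster can therefore not be told apart for this class. Of 53516 barcode sequences, 308 (0.576%) occurred in more than 1 library. Levels are the UMIs of a gene summed over the cells of a class in a library and scaled to 1000000 UMIs outside mitochondrial genes (CPM). Intervals are exact 95% Poisson intervals for levels and exact 95% Clopper-Pearson intervals for shares of cells, and cover counting error only. A class in a library was used where it held at least 50 cells.

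**Figure D1:**
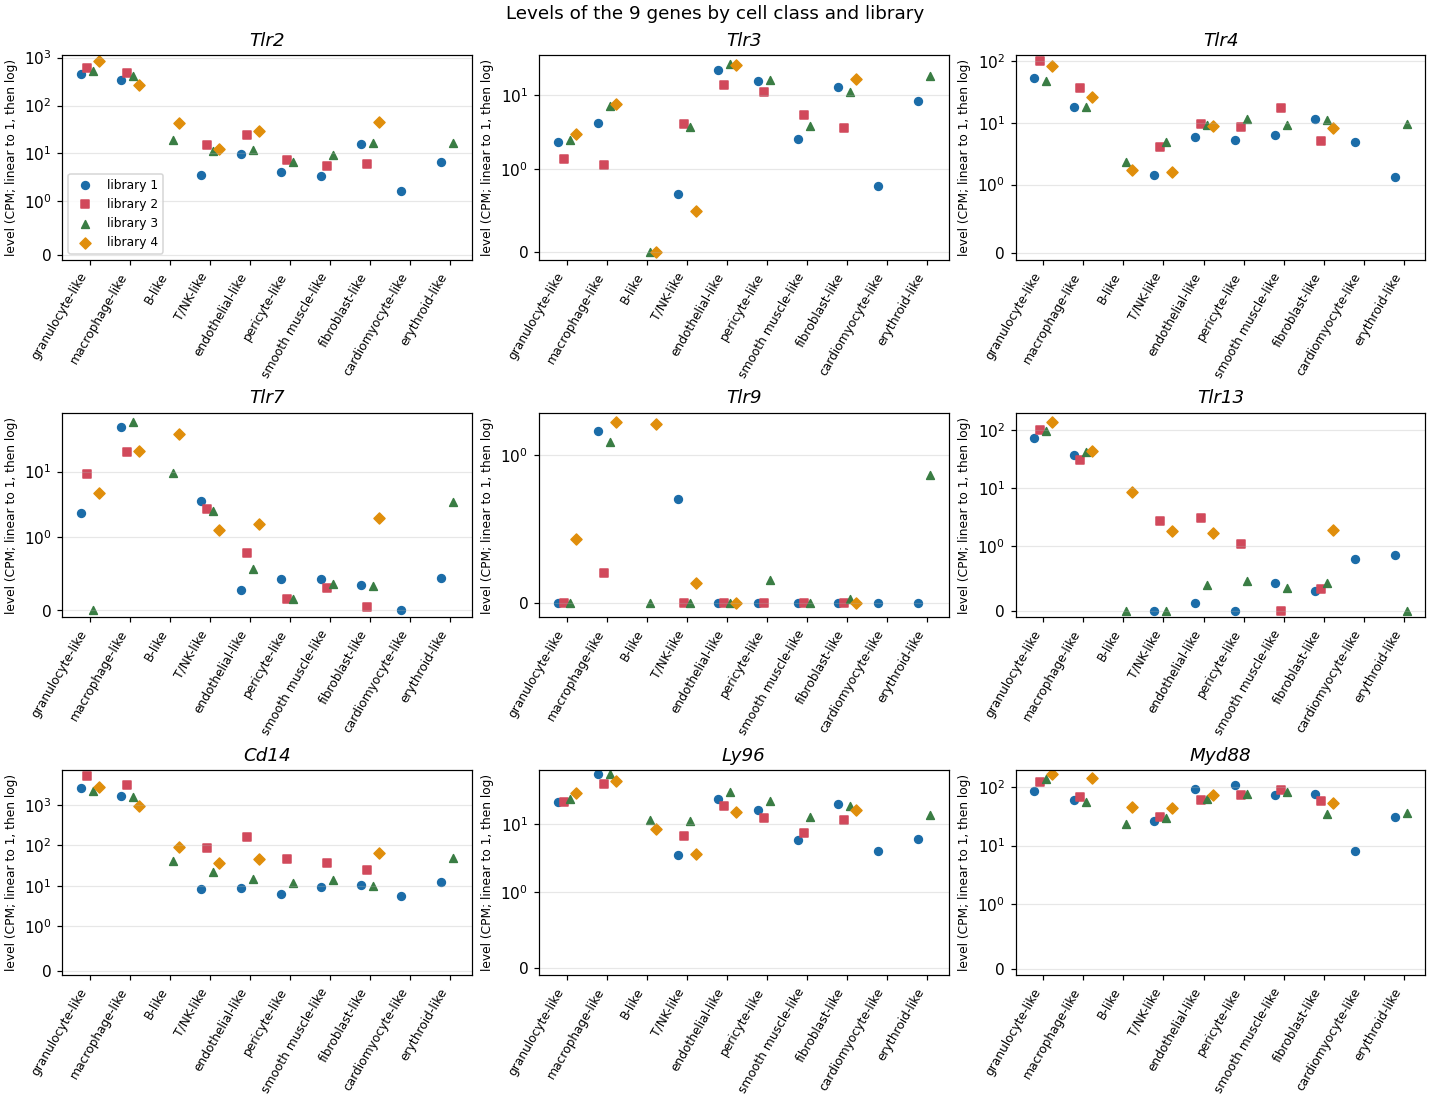
Level of each of the 9 genes (CPM, linear to 1 and logarithmic above) in each cell class, with 1 point for each library that held at least 50 cells of the class. *Cd14*, *Tlr2* and *Tlr13* are highest in granulocyte-like and macrophage-like cells, *Tlr3* in endothelial-like cells, and *Myd88* is spread over the classes.

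*Cd14* and *Tlr2* were genes of myeloid cells in all 4 libraries. *Cd14* stood at 2663, 5286, 2313 and 2818 CPM in granulocyte-like cells. In macrophage-like cells it stood at 1661, 3208, 1635 and 945 CPM. Granulocyte-like cells were the higher class within every library, although the ranges overlapped, with both classes at their highest in library 2. These classes held 27.7% and 67.0% of all *Cd14* UMIs of the clustered cells. *Tlr2* followed the same order, with 445, 618, 513 and 833 CPM in granulocyte-like and 346, 478, 420.4 and 269 CPM in macrophage-like cells, again with overlapping ranges. The next class by median level, B-like cells, reached 91.0 CPM of *Cd14* and 42.9 CPM of *Tlr2* at most, below every macrophage-like value.

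*Tlr4* was highest in granulocyte-like cells, at 54.2, 102, 47.2 and 83.4 CPM. Macrophage-like cells came next with 18.1, 36.9, 17.9 and 26.4 CPM. The ranges of these classes did not overlap, and neither did those of macrophage-like and fibroblast-like cells. Below them, fibroblast-like (5.11 to 11.7), smooth muscle-like (6.38 to 17.4), endothelial-like (5.87 to 9.64) and pericyte-like cells (5.35 to 11.5) overlapped and could not be ordered. T/NK-like cells held at most 4.97 CPM.

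*Ly96* had a different order from *Tlr4*, the receptor that its product serves. Macrophage-like cells were highest, at 55.0, 39.8, 54.5 and 43.3 CPM. Granulocyte-like cells held 21.2, 21.1, 23.6 and 29.4 CPM, a range that lay below the macrophage-like range and overlapped that of endothelial-like cells (23.4, 18.8, 29.9 and 15.4 CPM). Fibroblast-like (11.7 to 19.9 CPM) and pericyte-like cells (12.3 to 22 CPM) also carried the gene. *Ly96* was thus the co-receptor gene with the flatter distribution, as 23.3% of its UMIs came from endothelial-like and 15.2% from fibroblast-like cells, against 3.04% and 0.836% for *Cd14*.

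Among the endosomal receptors, *Tlr13* resembled *Tlr2*. It stood at 73.1, 101, 95.6 and 137 CPM in granulocyte-like and 37.4, 30.1, 42.5 and 43.6 CPM in macrophage-like cells, with no overlap between these ranges. B-like cells followed with 0 and 8.59 CPM in libraries 3 and 4, and every other class stayed at or below 3.07 CPM. *Tlr7* was instead a gene of macrophage-like cells, with 47.8, 19.7, 56.8 and 20.5 CPM. Libraries 1 and 3 were the higher ones. B-like cells, assessed in libraries 3 and 4, held 9.44 and 37.8 CPM of *Tlr7*, so that in library 4 they exceeded macrophage-like cells. That B-like value rested on 22 UMIs. Granulocyte-like cells held 2.36, 9.22, 0 and 4.76 CPM of *Tlr7*.

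*Tlr9* was near the limit of detection. The clustered cells held 214 *Tlr9* UMIs, of which 195 (91.1%) were in macrophage-like cells, at 1.53, 0.201, 1.26 and 1.80 CPM. Endothelial-like cells gave 0 UMIs in 14882 cells, which by a limit of 3 counts allows a share of up to 0.0202% of cells with a *Tlr9* UMI. In B-like cells *Tlr9* was at 0 and 1.72 CPM in libraries 3 and 4, resting on 1 UMI, so that no order between B-like and macrophage-like cells could be read.

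*Tlr3* was the member whose highest named class was not myeloid, although dendritic-like cells took that place in the 3 alternative clusterings that named them. A dendritic-like subcluster of the macrophage-like cells, described below, was instead lower than endothelial-like cells. Endothelial-like cells held 22, 13.7, 26.4 and 25.8 CPM. Pericyte-like cells, assessed in libraries 1 to 3, held 15.6, 11 and 16 CPM, and fibroblast-like cells 13.1, 3.65, 11.1 and 17.0 CPM. Erythroid-like cells held 8.29 and 18.2 CPM in libraries 1 and 3. Endothelial-like cells were the highest class within each of the 4 libraries, but the ranges of these classes overlapped. Library 2 was the lowest in endothelial-like, pericyte-like and fibroblast-like cells. Macrophage-like cells stood at 4.29, 1.14, 7.15 and 7.77 CPM and granulocyte-like cells at 2.36, 1.39, 2.48 and 3.03 CPM, both below every endothelial-like value.

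*Myd88* was the least restricted member. Granulocyte-like cells held 84.8, 121, 138 and 169 CPM, macrophage-like cells 59.3, 68.5, 54.8 and 147 CPM, and endothelial-like cells 92.9, 61.1, 63.7 and 74.5 CPM. Library 4 stood apart among the macrophage-like values. Smooth muscle-like (74.4 to 88.6 CPM), pericyte-like (74.6 to 108 CPM) and fibroblast-like cells (34.6 to 76.8 CPM) overlapped with them. T/NK-like cells followed with 26.04 to 43.2 CPM. The order of neighbouring classes was therefore unresolved for *Myd88*. Cardiomyocyte-like cells, assessed in library 1 only, were lowest with 8.02 CPM (95% interval 3.85 to 14.8). This place depended on the class definition. With classes taken from each cell's own markers they held 19.1 CPM in library 1, and erythroid-like cells were lower, at 17.9 CPM. Cluster 18 (856 cells of all 4 libraries) held 8 of 8 cardiomyocyte markers but stayed unnamed by the naming rule. It stood at 51.4 CPM of *Myd88*, so the lowest place covers only the cells that were named.

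Differences between classes were then taken within each library, on the scale log2(CPM + 5). A gene was called where the ratio reached 2-fold in the same direction in all 4 libraries, among genes with at least 10 CPM in either class. Libraries are not replicates of a group, so the call is a description without a p. For macrophage-like over endothelial-like cells, 8 of the 9 members passed the level filter, *Tlr9* being the exception. The call was met upwards by 4 members, against 7.67% of 9073 genes, and downwards by 1 member, against 13.2%. *Cd14* had a median log2 ratio of 5.30 (4.23 to 6.94 over libraries), *Tlr2* of 4.32 (2.99 to 4.68), *Tlr13* of 2.96 (2.12 to 3.14) and *Tlr7* of 2.71 (1.96 to 3.48). *Tlr3* was lower in macrophage-like cells, at -1.46 (-1.61 to -1.27). No call was made for *Tlr4* at 1.14 (0.68 to 1.52), *Ly96* at 1.00 (0.77 to 1.25) and *Myd88* at -0.02 (-0.61 to 0.93). The median ratio was 1.92 for the members tested and -0.29 for all genes tested. With a pseudocount of 20 CPM in place of 5, *Tlr3* was no longer called (-0.75) and neither was *Tlr7* (1.34). *Tlr4* met the call without library 3 (1.19) and with UMIs pooled over libraries (1.20), and *Ly96* met it under median-of-ratios scaling (1.29).

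Granulocyte-like and macrophage-like cells were compared in the same way. The level filter was passed by 7 members, all but *Tlr3* and *Tlr9*. *Tlr4* alone was called higher in granulocyte-like cells, at a median log2 ratio of 1.36 (1.19 to 1.49), against 4.11% of 7705 genes. No member was called lower, against 7.36% of genes. The *Tlr4* call ended with a pseudocount of 20 CPM (1.03), with cells thinned to 1000 UMIs (1.49, not 2-fold in every library) and with classes taken from each cell's own markers (1.31). *Tlr13* had a ratio of 1.31 (0.88 to 1.6) and met the call in 5 alternatives: under median-of-ratios scaling (1.68), with cells thinned to 1000 UMIs (1.46), with 20 principal components (1.31), with UMIs pooled over libraries (1.25) and without library 1 (1.54). *Cd14* (0.70, 0.50 to 1.57), *Tlr2* (0.36, 0.28 to 1.61) and *Myd88* (0.63, 0.20 to 1.26) were above 0 in each of the 4 libraries without reaching 2-fold in all. *Ly96* (-0.92, -1.20 to -0.49) and *Tlr7* (-2.12, -3.63 to -0.80) were below 0 in each of them. *Tlr7* was called lower without library 2 (-2.84), in which granulocyte-like cells held 9.22 CPM. Their *Tlr7* values in libraries 1 and 3 lay below the level of 3 UMIs, which was 7.07 and 3.73 CPM there. The lowest *Tlr7* ratio was that of library 3, where they held no *Tlr7* UMI, so this call rests largely on counts near the limit of detection. The median ratio was 0.63 for the members tested and -0.37 for all genes tested.

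Between fibroblast-like and endothelial-like cells, 5 members passed the level filter (*Tlr2*, *Tlr3*, *Cd14*, *Ly96* and *Myd88*). None was called in either direction, against 5.86% of 9369 genes upwards and 7.80% downwards. *Tlr3* was lower in fibroblast-like cells of each library, with a median log2 ratio of -0.77 (-1.11 to -0.49). *Cd14* ranged from -2.51 in library 2 to 0.48 in library 4, and *Tlr2* from -1.40 in library 2 to 0.57 in library 4. Library 2 was the sole library in which endothelial-like cells exceeded fibroblast-like cells in *Tlr2*. Its fibroblast-like cells were nearly all of cluster 19. Of its 944 endothelial-like *Tlr2* UMIs, subclusters 8 and 9, described below, held 116 and 460. The part of either in this difference was not tested. The members tested had a median ratio of -0.35, and all genes tested -0.15.

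**Figure D2:**
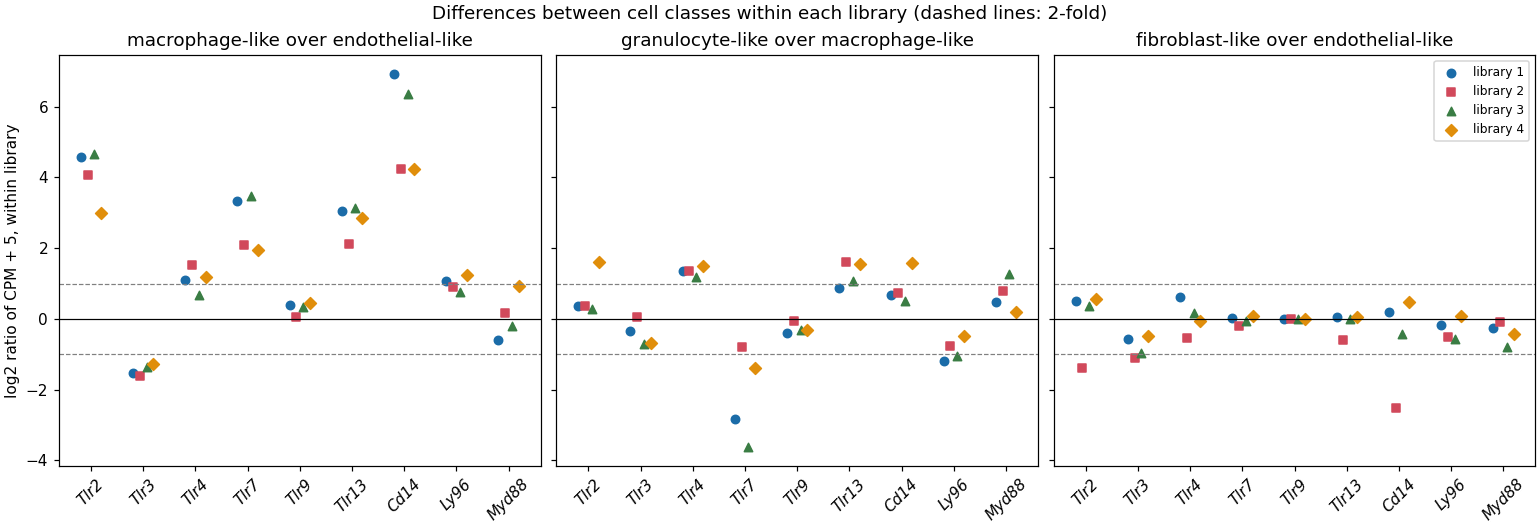
Ratio between 2 cell classes for each of the 9 genes within each library, as log2 of (CPM + 5), for 3 pairs of classes. Dashed lines mark 2-fold in either direction. In the first panel the 4 library values of *Cd14*, *Tlr2*, *Tlr13* and *Tlr7* lie above the upper line and those of *Tlr3* below the lower line.

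Low levels of myeloid genes were read in classes outside the myeloid lineage, and were set beside those of 10 macrophage marker genes (among them *C1qa*, *C1qb*, *C1qc*, *Ctsc*, *Adgre1*, *Csf1r*, *Ms4a7*, *Fcgr1* and *Lyz2*). In endothelial-like cells the median marker stood at 0.370%, 2.40%, 0.610% and 4.35% of its macrophage-like level in libraries 1 to 4. None of the 10 was at 0 in any library. *Cd14* stood at 0.517%, 5.19%, 0.906% and 4.82% of its macrophage-like level, and *Tlr7* at 0.569%, 3.99%, 0.988% and 7.62%. These percentages were higher in libraries 2 and 4 than in libraries 1 and 3, as the median marker was. *Tlr13* did likewise (0.312%, 10.2%, 0.945% and 3.86%), with a value above every marker in library 2, as *Tlr7* had in library 4. The order of libraries 2 and 4 differed, as *Cd14* and *Tlr13* were highest in library 2, the median marker and *Tlr7* in library 4. *Tlr2* was above the marker median in all 4 libraries, at 2.82%, 5.01%, 2.77% and 10.9%, and above every marker in library 4. *Tlr13* was higher in granulocyte-like than in macrophage-like cells. Of its granulocyte-like level, endothelial-like cells held 0.160%, 3.03%, 0.419% and 1.23%. The granulocyte genes *S100a8* and *S100a9* had a median of 0.0208%, 1.92%, 0.0365% and 0.205% on that scale. The part of RNA from other cells in these low values was not tested.

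The percentages of *Tlr4* and *Ly96* in endothelial-like cells were higher. *Tlr4* stood at 32.5%, 26.1%, 52.2% and 33.2% of its macrophage-like level and *Ly96* at 42.5%, 47.3%, 54.9% and 35.5%, above all 10 markers in every library. Against granulocyte-like cells, *Tlr4* in endothelial-like cells stood at 10.8%, 9.45%, 19.8% and 10.5%, where *S100a8* and *S100a9*, the abundant calprotectin genes of granulocytes, had a median of 0.0208%, 1.92%, 0.0365% and 0.205%. *Tlr3* (332% to 1202%) and *Myd88* (50.9% to 157%) likewise exceeded every macrophage marker. Fibroblast-like cells gave the same picture for *Ly96* (29.4% to 38.1%) and *Tlr3* (155% to 321%), both above all 10 markers in every library. For *Tlr4* they held 13.8% in library 2 and 30.9% to 64.9% in the others, likewise above all 10.

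**Figure D3:**
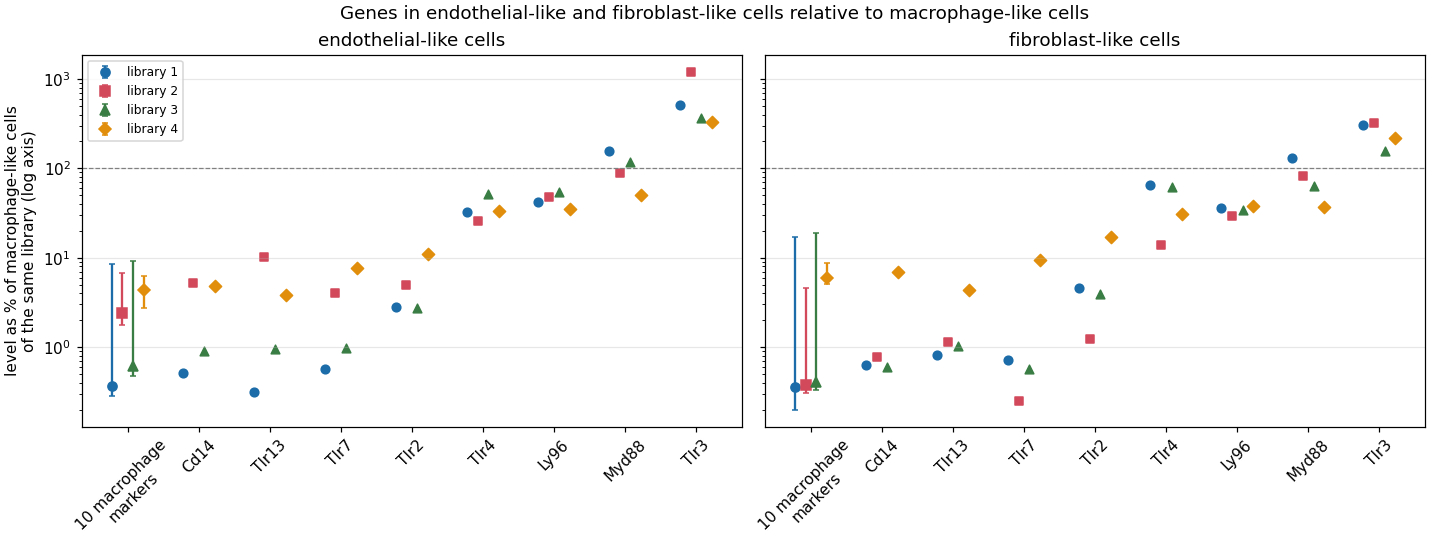
Level in endothelial-like cells (left) and fibroblast-like cells (right) as a percent of the level in macrophage-like cells of the same library, on a log axis, for 10 macrophage markers (large point, median, with a bar from the lowest to the highest marker) and 8 members. *Tlr4*, *Ly96*, *Myd88* and *Tlr3* lie above all 10 markers in each library. *Cd14* lies within their range, and *Tlr13* (endothelial-like, library 2), *Tlr7* and *Tlr2* (both classes, library 4) pass it in the libraries named.

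Within the endothelial-like class, high *Cd14* was concentrated in a pair of subclusters. On renewed clustering, subclusters 8 and 9 (608 and 535 cells, all but 1 from library 2) held 968 and 1167 CPM of *Cd14* and 125 and 157 CPM of *Tlr2*. The other 11 subclusters lay between 8.36 and 142 CPM of *Cd14* and between 8.20 and 30.2 CPM of *Tlr2*. Genes of granulocytes and macrophages led both (*Cxcl3*, *Chil3*, *Arg1*, *Retnlg* and *S100a9* among the leading genes). *S100a9* stood there at 9373 and 10580.0 CPM beside 633 and 689 CPM of the endothelial gene *Cdh5*, which compared with 1285 CPM of *Cdh5* in subcluster 1. With these subclusters and a subcluster led by haemoglobin genes left out, the median log2 ratio of *Cd14* between macrophage-like and endothelial-like cells rose from 5.30 to 5.98 and 4 members remained called higher and 1 lower. Endothelial-like cells of library 2 chosen by their own markers (3410 cells) held 80.7 CPM of *Cd14*, against 166.5 CPM in the class.

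Subclusters named from endothelial markers differed little in *Tlr3*, which lay at 24.6 CPM (95% interval 21.4 to 28.2) in arterial, 19.6 (16.2 to 23.4) in capillary, 18.7 (13.97 to 24.5) in endocardial and venous, 20.04 (15.4 to 25.7) in lymphatic and 24.5 (19.3 to 30.7) in cycling cells, all with overlapping intervals. These values were pooled over libraries, and 2471 of the 2481 capillary cells came from library 2 and 167 of the 173 cycling cells from library 3. Unnamed subclusters differed more. Subcluster 1, almost wholly of library 2, held 12.9 CPM (11.6 to 14.4), and subcluster 4, of libraries 1 and 3, held 28.4 CPM (25.2 to 31.9). *Tlr4* set the lymphatic subcluster apart from the other named ones. Its 210 cells held 2 *Tlr4* UMIs (0.646 CPM, 0.0783 to 2.34), while arterial cells held 10.9 CPM (8.76 to 13.4), capillary cells 9.28 CPM (7.01 to 12.1) and endocardial and venous cells 11.5 CPM (7.87 to 16.3). Its *Ly96* level was not low, at 36.2 CPM (29.8 to 43.6), with 51.5, 27.5 and 33.7 CPM in libraries 1 to 3. The unnamed subcluster led by haemoglobin genes was also low in *Tlr4*, with 5 UMIs (2.64 CPM, 0.858 to 6.16). *Cd14* in lymphatic cells stood at 20.8, 149 and 22.5 CPM in libraries 1 to 3, so that its pooled level of 56.6 CPM rested on 50 cells of library 2.

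The macrophage-like cells were then divided again, and the subclusters followed the libraries. Subcluster 3, resident-like by its markers, held 378 cells of library 1 and 981 of library 3. Subclusters 5 (722 cells) and 8 (resident-like, 263 cells) came from library 2. Subcluster 5 held 3 markers of infiltrating macrophages but was led by *Cxcl3*, *Lcn2*, *S100a8* and *Arg1*, with 149 CPM of the monocyte gene *Ly6c2* and 6354 CPM of *Arg1*, and is left without a name. Subclusters 1, 2, 4, 6 and 7 came almost wholly from library 4, with 2355, 1389, 827, 691 and 416 cells. Of these, subcluster 4 was infiltrating-like and 4 stayed unnamed. A subcluster and its library can therefore not be told apart, and the levels were read within a library.

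Within library 2, *Tlr7* separated the resident-like cells from those of subcluster 5. Resident-like cells of subcluster 8 held 49.9 CPM of *Tlr7* (95% interval 41.3 to 59.8) and cells of subcluster 5 held 14.1 (12.1 to 16.4). *Tlr4* stood at 28.8 CPM (22.3 to 36.5) in the resident-like and 39.1 CPM (35.7 to 42.8) in subcluster 5, with intervals that met. *Cd14* was higher in subcluster 5 (3308 CPM against 2776) and *Tlr2* in the resident-like cells (591 CPM against 454). The resident-like subcluster 3 had *Tlr7* levels like those of subcluster 8, at 50.6 CPM in library 1 (44.7 to 57.0) and 59.9 CPM in library 3 (55.9 to 64.1). Resident-like cells thus carried about 50 to 60 CPM of *Tlr7* in each of libraries 1, 2 and 3.

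Library 4 held 5 large subclusters. *Cd14* was highest in subcluster 2, led by *Nos2*, *Inhba* and *Acod1*, at 1458 CPM, and lowest in subcluster 7, led by *Ccl8*, *Ccl5* and *Vcam1*, at 669 CPM. *Tlr2* had the same extremes, 405 CPM and 177 CPM. *Tlr4* ran otherwise. It reached 33.7 CPM in subcluster 7, against 24.8 CPM in subcluster 2, and was lowest in subcluster 6, at 12.9 CPM (95% interval 10.4 to 15.8). Subcluster 6, led by *Smpdl3b* and *Gpr141*, was instead the highest of the 5 in *Tlr7*, at 39.3 CPM against 17.3 to 24.0. *Ly96* was lowest there too, at 26.2 CPM against 33.5 to 53.8. The top values of *Myd88*, 197 and 199 CPM, belonged to subclusters 4 and 6, and the gene stood at 109 to 149 CPM in the other 3. All 5 lay above the 54.2 to 69.8 CPM of *Myd88* in subclusters 3, 5 and 8 of the other libraries.

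Dendritic-like cells formed subcluster 10 (138 cells of library 4). They held less *Cd14* (310 CPM) and *Tlr2* (137 CPM) than the 5 large subclusters of the same library. *Tlr7* (7.27 CPM, 95% interval 3.97 to 12.2) and *Ly96* (11.9 CPM, 7.57 to 17.9) were also lower. *Tlr4* stood at 6.75 CPM (3.59 to 11.5), an interval that met that of subcluster 6 (10.4 to 15.8). *Myd88* stood at 178 CPM, within the range of the 5.

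**Figure D4:**
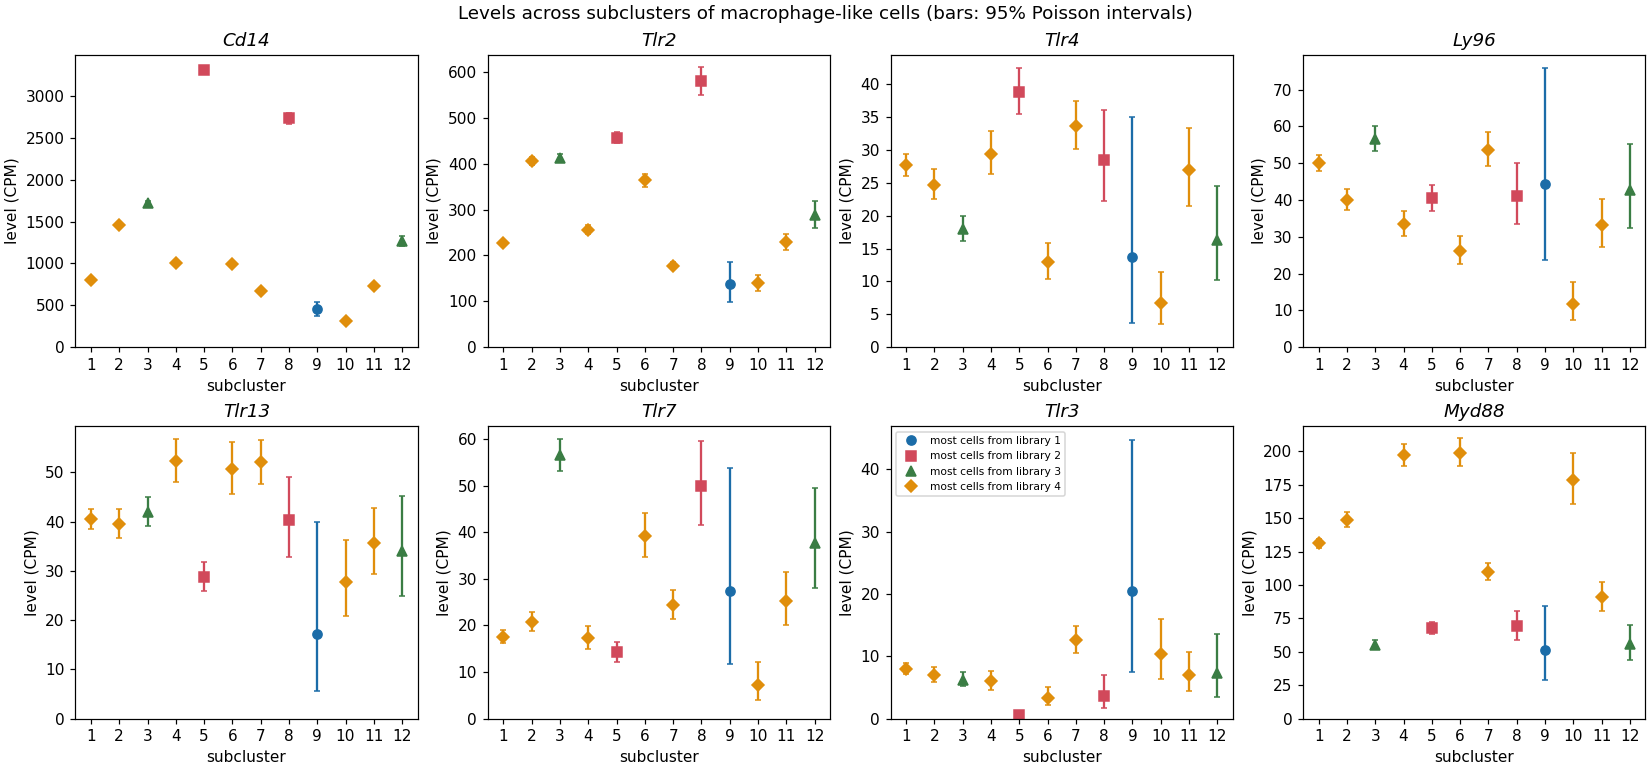
Level (CPM, linear axes from 0) of 8 members in 12 subclusters of macrophage-like cells, with exact 95% Poisson intervals. Shape and colour give the library that supplied most cells of the subcluster. *Cd14* is highest in subclusters 5 and 8, *Tlr7* in subclusters 3 and 8, and *Myd88* in subclusters 4 and 6.

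The genes of the lipopolysaccharide receptor were next read cell by cell. UMIs of *Cd14*, *Ly96* and *Tlr4* occurred together in 1184 of 8564 macrophage-like cells (13.8%, 95% interval 13.1 to 14.6) and in 96 of 3867 granulocyte-like cells (2.48%, 2.02 to 3.02). The median depths of these classes were 14254 and 3472 UMIs. With each cell thinned to 1000 UMIs the shares were 0.0709% (0.0260 to 0.154) and 0.198% (0.0796 to 0.408), with overlapping intervals and the opposite order. No order between the classes was therefore read. In thinned cells *Tlr4* was detected in 9.08% of granulocyte-like and 2.65% of macrophage-like cells, and *Ly96* in 2.38% and 4.26%, the order of the CPM levels. *Cd14* was detected in 84.4% and 57.5%. T/NK-like cells, a class that should lack *Cd14*, gave 4.03% after thinning and 31.7% before, at a median depth of 8638 UMIs. By library, the thinned share was 1.16%, 8.75%, 0.840% and 4.12% in T/NK-like cells, 1.04%, 19.1%, 2.29% and 4.53% in endothelial-like cells and 0.555%, 4.82%, 1.03% and 7.48% in fibroblast-like cells. The endothelial-like share lay above the interval of the T/NK-like share (4.87 to 14.3) in library 2, and the fibroblast-like share above that interval (3.13 to 5.32) in library 4. Endothelial-like subclusters 8 and 9, led by genes of granulocytes and macrophages, gave thinned shares of 59.05% and 69.2% in library 2. The other endothelial-like subclusters with at least 50 cells of library 2 gave 6.95% to 14.6%. In libraries 1 and 3 the endothelial-like and fibroblast-like shares stayed within the T/NK-like intervals. Those intervals rested on 173 and 119 thinned T/NK-like cells, too few to set such low shares apart. Among macrophage-like cells a *Tlr4* UMI went with a *Ly96* UMI in 50.5% of cells, against 38.7% of cells without *Tlr4*, but the shares were 4.02% and 4.27% at equal depth.

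The patterns of the members across 31 groups of class and library were compared by Pearson's r of log2(CPM + 5). The groups share libraries and differ in depth, so r is a description. *Cd14* and *Tlr2* (0.97), *Tlr2* and *Tlr13* (0.96) and *Cd14* and *Tlr13* (0.95) were the closest pairs. *Tlr7* was nearest to *Tlr9* (0.82), but *Tlr9* stayed at or below 1.80 CPM in every group, so that value rests on levels near the limit of detection. *Tlr3* had negative values with *Cd14* (-0.32), *Tlr7* (-0.33) and *Tlr13* (-0.34). Over 11088 genes, those most like *Cd14* were *Alox5ap*, which serves leukotriene synthesis, *C5ar1*, a receptor for complement C5a, and *Nlrp3*, an inflammasome sensor (0.99, 0.99 and 0.98). For *Tlr2* they were *Csf2ra*, a GM-CSF receptor chain, *C5ar1* and *Rbm47* (0.97 to 0.98), and for *Tlr13* they were *Mefv*, *Ptafr* and *Nlrp3* (0.98 to 0.99). *Tlr7* was closest to *Nlrc4*, *Gm6377* and *Cd86* (0.89 to 0.90), and *Tlr4* to *Rab20*, *Pygl* and *Mtmr6* (0.92 to 0.93). *Ly96* was closest to *Atp6v1a*, *Asah1* and *Psap* (0.88 to 0.89), genes of the lysosome, *Myd88* to *Nfkbia*, *Neat1* and *Tnfrsf1a* (0.84 to 0.87), and *Tlr3* to *Plod1*, *Plscr3* and *Smad1* (0.89 to 0.91). *Tlr9* failed the level filter of this comparison.

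A list of 54 further genes of the pathway was read with the same call. It was chosen with earlier results of these data known, so its shares are a description. Between macrophage-like and endothelial-like cells, 11 of the 48 tested were higher (22.9%, against 7.67% of all genes) and 3 lower (6.25%, against 13.2%), with a median log2 ratio of 0.30 beside the -0.29 of all genes tested. In the group of other receptors, *Tlr1* (2.32) and *Tlr6* (1.33), which encode partners of TLR2, were called higher, both at low levels of 30.6 and 13.5 CPM in macrophage-like cells. *Tlr5*, *Tlr8* and *Tlr11* failed the level filter. *Unc93b1*, whose product carries the endosomal receptors to their compartment, was higher (3.14), as were *Ly86* (5.15), which encodes MD-1, *Irf5* (3.92), an interferon regulatory factor, the kinase gene *Ikbke* (2.26) and the adaptor gene *Ticam2* (1.68). Of the 6 tested genes of the output, *Il1b* (5.32), *Cxcl2* (3.63), *Ptgs2* (3.09) and *Tnf* (1.89) were higher. *Cd36*, a scavenger receptor and TLR2 co-receptor, was lower (-4.11), at 58.4 CPM in macrophage-like and 2342 CPM in endothelial-like cells. *Lbp* (-2.03) and *Sigirr* (-2.21) were lower as well. Of the 12 kinases and ligases 1 was called, a share near that of all genes.

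Granulocyte-like over macrophage-like cells gave 6 higher (13.04%, against 4.11% of all genes) and 4 lower (8.70%, against 7.36%) of the 46 list genes tested, with a median of 0.18 beside -0.37. *Tlr6* (1.30) and *Tirap* (1.42), the adaptor that bridges TLR2 and TLR4 to MyD88, were higher, as were *Nfkbia* (1.78), the inhibitor of NF-kB, and *Tnf* (2.58). *S100a8* and *S100a9*, whose products are TLR4 ligands, were higher too, but they are markers that named the class. Their calls were built into that naming, and the 13.04% counts them, so it is no like-for-like match to the 4.11%. *Ly86* (-4.53), *Unc93b1* (-1.80), *Hsp90b1* (-2.02), a chaperone of these receptors, and *Ticam1* (-1.35), the adaptor of TLR3, were lower. Of the 3 genes for folding and trafficking, 2 were lower in granulocyte-like cells.

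Fibroblast-like over endothelial-like cells gave 4 higher (10.3%, against 5.86% of all genes) and 5 lower (12.8%, against 7.80%) of 39, with a median of -0.42 beside -0.15. The endogenous ligand genes *Tnc* (3.15), *Bgn* (5.41) and *Vcan* (4.45) were higher, and so was *Ptgs2* (3.11). *Bgn* is a marker that named the class and is counted in the 10.3%. *Cd36* (-5.73), *Tnf* (-2.58), *Irf7* (-1.34), *Irak2* (-1.87) and *Sigirr* (-2.66), which encodes an inhibitory receptor, were lower.

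**Figure D5:**
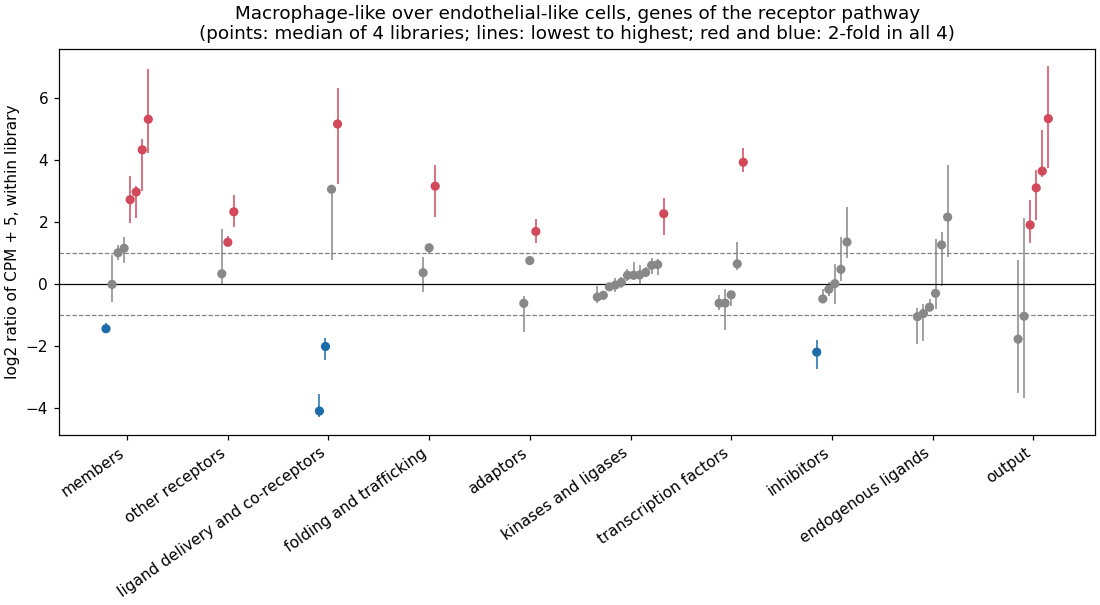
Ratio of macrophage-like to endothelial-like cells, as log2 of (CPM + 5), for the 8 members and the 48 listed pathway genes that passed the level filter, by role. Points are medians of 4 libraries, lines run from the lowest to the highest library, and red and blue mark 2-fold in all 4. Red points stand among the members, other receptors and output, and most kinases lie near 0.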

How the data were processed

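Hearts were dissociated and profiled by 10x Chromium 3′ scRNA-seq. The authors aligned the reads to mm10 with Cell Ranger (3.0.0 per the file headers) and deposited 1 merged table of raw UMI counts for the 4 grafts. The submitters' processing notes also name CASAVA 1.8 and Seurat. All 4 libraries were analysed here as 1 pooled sample. The 9 genes, the pathway list and the markers were chosen with earlier results of these data known.

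Cells with more than 200 genes and less than 20% mitochondrial UMIs were kept (44626, median 6733 UMIs). Doublets were simulated in each library, and the 5% of its cells with most simulated doublets among their 50 nearest neighbours were removed. Each cell was scaled to 10000 UMIs, log-transformed and reduced to 10 principal components of 2000 variable genes, from which 59 genes (the 9 members and the pathway genes that are no markers) were excluded. A 30-neighbour graph was clustered by Leiden (resolution 0.8, 0.5 for subclusters). A class name needed at least 3 markers in 10% of cells at 2-fold the other clusters, among 13 marker lists, and "-like" marks names given in this way. The name was withheld where another class had more markers among the 10 leading genes of the cluster. It was also withheld where depth was low and no marker of the class was among them. Named genes were the 9 members, the called pathway genes at 50 CPM or more in either class and, for each member, the 3 genes most alike. Called pathway genes below that level, and genes cited for subclusters, were named after their values were seen. Ratios used log2(CPM + 5) and a 10 CPM filter, so low genes are understated. With 1 pooled sample no comparison was tested. Alternatives changed the pseudocount (1, 20), scaling, filter, depth, doublets, resolution (0.4, 1.6), components (20), class definition, pooling and libraries used. 1 alternative, leaving out endothelial-like subclusters 8, 9 and 12, was chosen after seeing the data. Scripts were tested on simulated counts. The tools were leidenalg 0.10.2, igraph 0.11.9, scikit-learn 1.9.0, scipy 1.17.1, numpy 2.4.6 and pandas 2.3.3 under Python 3.11.15. 1 macrophage marker and 1 unnamed cluster are not reported here individually.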

Additional observations from a re-analysis of the deposited data

Results flagged for a closer look

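Of 32 sets of 4 library values, 3 held a library whose gap to the nearest of the others exceeded the 95% critical value of Dixon's ratio for 4 values. Chance gives about 1 such set in 20. *Cd14* in granulocyte-like cells of library 2 was the highest of its set, at 5286 CPM against 2313 to 2818 CPM in the others. *Myd88* in macrophage-like cells of library 4 stood at 146.5 CPM against 54.8 to 68.5 CPM. *Tlr13* in fibroblast-like cells of library 4 stood at 1.891 CPM against 0.304 to 0.435 CPM, resting on 28 UMIs, and the median macrophage marker in the same cells stood at 5.91% of its macrophage-like level, against 0.360% to 0.404% in the others. The part of RNA from other cells in that value was not tested.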

How the results depend on the processing

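Of 459 log2 ratios recomputed under 17 alternatives, 448 moved by no more than their range over libraries, 11 moved further and 0 changed direction past the call. Where 1 library was left out, the ratio could not move past that range, which came from the same libraries. The level filter does not enter the ratio. Part of the 448 was thus fixed in advance, and the count does not measure stability. Members called higher in macrophage-like than endothelial-like cells numbered 4 in the analysis reported, 3 with a pseudocount of 20 CPM (without *Tlr7*), 5 under median-of-ratios scaling (with *Ly96*) and 5 with pooled UMIs or without library 3 (with *Tlr4*). The 1 called lower was 0 with a pseudocount of 20 CPM. For granulocyte-like over macrophage-like cells the 1 called higher became 0 with a pseudocount of 20 CPM, 2 under median-of-ratios scaling, 2 with 20 principal components, 0 with classes from each cell's own markers and 4 with UMIs pooled over libraries. Leaving out 1 library gave 1 to 2, the 2 without library 1. The 0 called lower there became 1 with a pseudocount of 1 CPM, 1 with own-marker classes and 1 with pooled UMIs, and 0 to 1 leaving out 1 library, the 1 without library 2. For fibroblast-like over endothelial-like cells the 0 called lower became 1 with pooled UMIs. The 3 members highest in macrophage-like cells (*Tlr7*, *Tlr9* and *Ly96*) became 1 with cells thinned to 1000 UMIs. There B-like cells took *Tlr7*, and *Tlr9* was assigned to endothelial-like cells, which held 0 *Tlr9* UMIs. The 3 became 2 with doublets kept or 20 components, where *Tlr9* went to B-like and dendritic-like cells. Leaving out 1 library gave 1 to 3, the 1 without library 3, where B-like cells took *Tlr7* and *Tlr9*. *Myd88*, highest in granulocyte-like cells in the analysis reported, was highest in smooth muscle-like cells after thinning. In 3 alternatives that named dendritic-like cells, these took *Tlr3* from endothelial-like cells. Under median-of-ratios scaling the median of all genes tested shifted from -0.29 to -0.03, from -0.37 to 0.03 and from -0.15 to 0.05 in the 3 comparisons, in the order of the text. The causes of these changes were not tested. *Tlr9* counts were low, with 195 UMIs in macrophage-like cells and at most 4 in any other named class. The order of *Tlr9* among those other classes could not be read. No paired analysis was possible because the barcode numbers are not tied to the replicate numbers of the grafts.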

Other observations

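The members were also read in 2 of the 3 clusters that stayed unnamed. Cluster 13 (1330 cells, median depth 1217 UMIs) was led by *Ccr7*, *Flt3* and *Wdfy4* but held 2 of 8 dendritic cell markers, below the 3 needed for a name. It held 37.3 CPM of *Tlr3* (95% Poisson interval 32.6 to 42.4), above the 26.4 CPM that was the highest endothelial-like library value, and 195 CPM of *Cd14*, 67.7 CPM of *Tlr2* and 10.6 CPM of *Tlr7*. *Tlr9* gave 8 UMIs there (1.30 CPM, 0.562 to 2.57). Cluster 18 (856 cells, median depth 905 UMIs) was led by *Acta1*, *Nppa* and *Ankrd1*. It held 8 of 8 cardiomyocyte markers but had more markers of another class among its 10 leading genes. Its *Cd14* level was 154 CPM, against 18.6 CPM (12.2 to 27.0) in all cardiomyocyte-like cells, and its *Myd88* level 51.4 CPM. These pooled values were not compared by library. *Tlr12* reached 14.3 CPM in 1 library of macrophage-like cells, and its lowest library there was at 0.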
